A study of Mus musculus with 15 samples.

Results

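The genes described here are 40 genes of the extracellular matrix and of the cells that make it in liver, out of 37991 genes in the count table. They were taken from a list of gene symbols that was chosen with earlier results of these data known, and fall into 6 classes: 7 fibrillar collagens, 4 beaded filament and fibril-associated collagens, 9 genes of the basement membrane, 10 matrix glycoproteins and proteoglycans, 3 cross-linking enzymes and 7 markers of stellate and other mesenchymal cells. All 40 were expressed highly enough to be tested.

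RNA was sequenced from whole liver of female C57BL/6 mice fed a chow diet, in 3 groups of 5 animals with 1 library per animal. Young WT mice were wild type at the gene of ribosomal S6 kinase 1 (S6K1, gene Rps6kb1) and 90 days old, old WT mice were wild type and 600 days old, and the old KO group, also 600 days old, was without S6K1 in the whole body. WT and KO mice came from heterozygous parents. The libraries held no young KO group, so genotype was compared at 600 days alone. The study asked how age and loss of S6K1 change the liver, scarring included.

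Matrix in the liver is made mainly by hepatic stellate cells, which store vitamin A in the space between hepatocytes and the sinusoidal endothelium, and by fibroblasts around the portal veins. In injury these cells take on contractile, myofibroblast features and lay down fibrillar collagens, of which types I and III form the bulk of scar tissue. Basement membrane proteins such as type IV collagen, laminins and perlecan are made by endothelial cells, stellate cells and hepatocytes, and the sinusoid normally has only a thin, discontinuous layer of them.

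Libraries held between 21801754 and 38065359 counts. Levels are given as CPM, the count of a gene relative to the TMM-scaled total of its library. Rps6kb1 stood at a mean of 38.4 CPM (SD 4.21) in old WT and 17 CPM (SD 2.23) in old KO, and every old KO library lay below every WT library. Hepatocyte markers such as albumin summed to between 86023 and 149721 CPM in the 15 libraries. Animals differed in matrix genes within groups: old WT 10 was the lowest of its group for 30 of the 40 genes and old KO 6 for 27, while old KO 1 was the highest for 29. Counts of changed genes are therefore also given without the 2 low livers, a choice made after seeing the data. Both are old livers, so leaving them out raises the old means of most of the 40 genes and tends to add genes called higher. Old KO 1 was left out only singly, as every animal was. Because whole tissue was sequenced, fewer cells of a type and less RNA per cell cannot be told apart.

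Levels of different genes were compared per kilobase of exon. Fn1, which encodes the adhesive glycoprotein fibronectin made largely by hepatocytes, was highest at 238 CPM per kb over the 15 libraries. It was followed by Col18a1 (126 CPM per kb), whose collagen XVIII carries endostatin, and by the collagen-binding proteoglycan decorin, Dcn (104 CPM per kb). These 3 genes made up 81.0%, 79.5% and 80.8% of the summed CPM of all 40 genes in young WT, old WT and old KO. Fibrillar collagens lay far lower, from 2.84 CPM per kb for Col5a3 and 2.02 for Col3a1 down to 0.574 for Col1a1. Lox, a lysyl oxidase that cross-links collagen and elastin, was lowest with 0.0859 CPM per kb, 2771-fold below Fn1, and its libraries held between 3 and 19 counts.

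**Figure D1:**
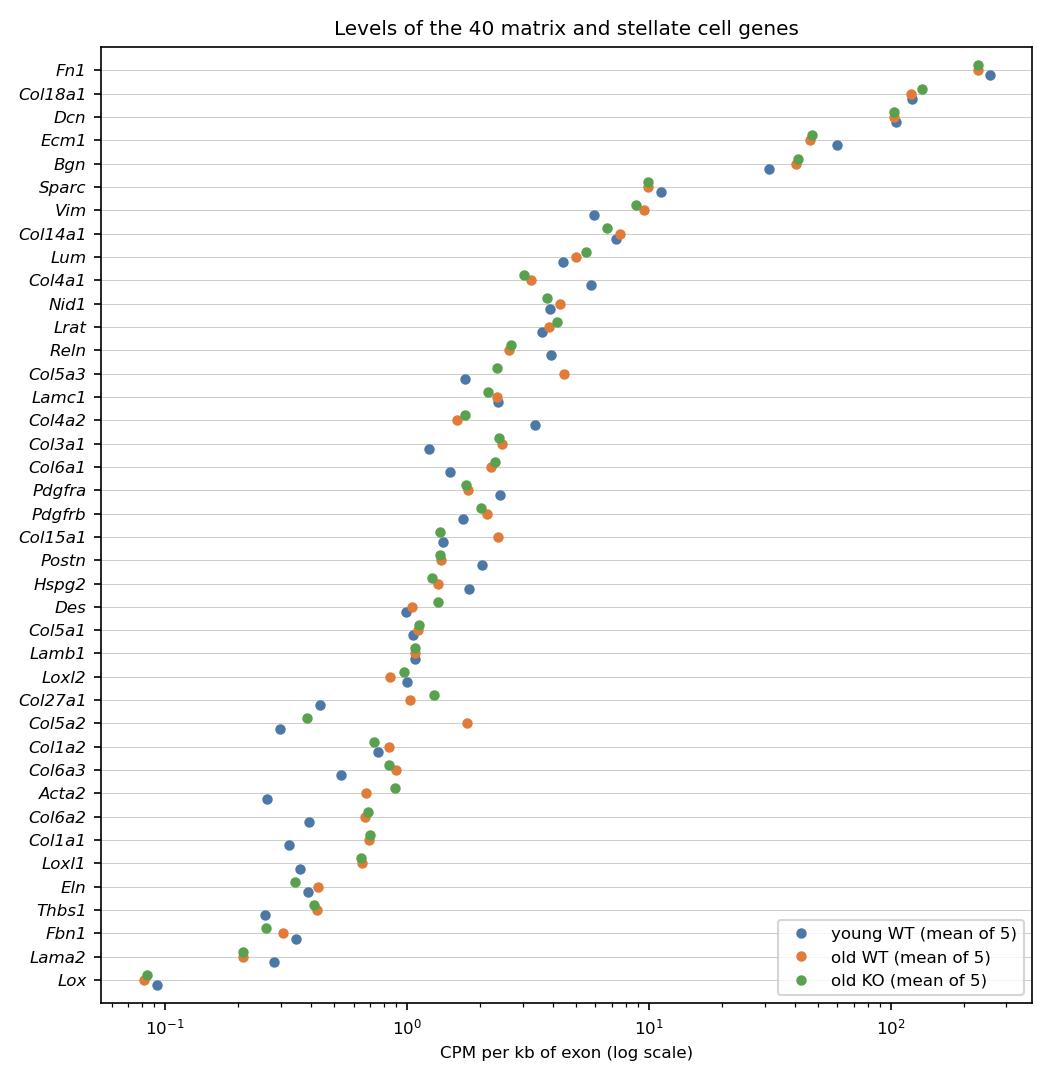
Mean level of each of the 40 genes in CPM per kb of exon on a log axis, with 1 point for each group of 5 animals (blue young WT, orange old WT, green old KO). Fn1, Col18a1 and Dcn stand above 100 CPM per kb and Lox is at the bottom, and the 3 points of most genes lie close together.

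Between 90 and 600 days the matrix genes of WT livers moved in both directions. Of the 40 genes, 9 passed an adjusted p of 0.05, against a background of 18.8% of all 14258 genes tested. The 6 that rose were the fibrillar collagen genes Col3a1, Col5a2, Col5a3 and Col27a1, the cross-linking enzyme gene Loxl1 and the intermediate filament gene Vim, where 9.92% of all genes were called higher. The 3 that fell were both chains of basement membrane collagen IV, Col4a1 and Col4a2, and Reln, where 8.91% of all genes were called lower. The share called among the 40 genes was close to that background, and their median log2 fold change was 0.10, beside 0.01 over all genes. Unadjusted p was under 0.05 for 19 of the 40, beside 33% of all genes. Groups did not overlap for Col27a1, Col6a3 and Vim, higher in every old WT liver (5.78% of all genes), and for Col4a1, Col4a2 and Reln, lower in every one (5.67% of all genes). Without the 2 low livers, 13 genes were called, 11 higher and 2 lower, where that fit called 17.3% of all genes. DESeq2 also called 13, against 22.8% of all genes, with Col1a1, Acta2, Col6a2, Col6a3 and Hspg2 added and Col5a2 left without a value. Col4a1, Col4a2, Col5a3 and Col27a1 were called in every one of the fits made, whichever animal or setting was changed.

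**Figure D2:**
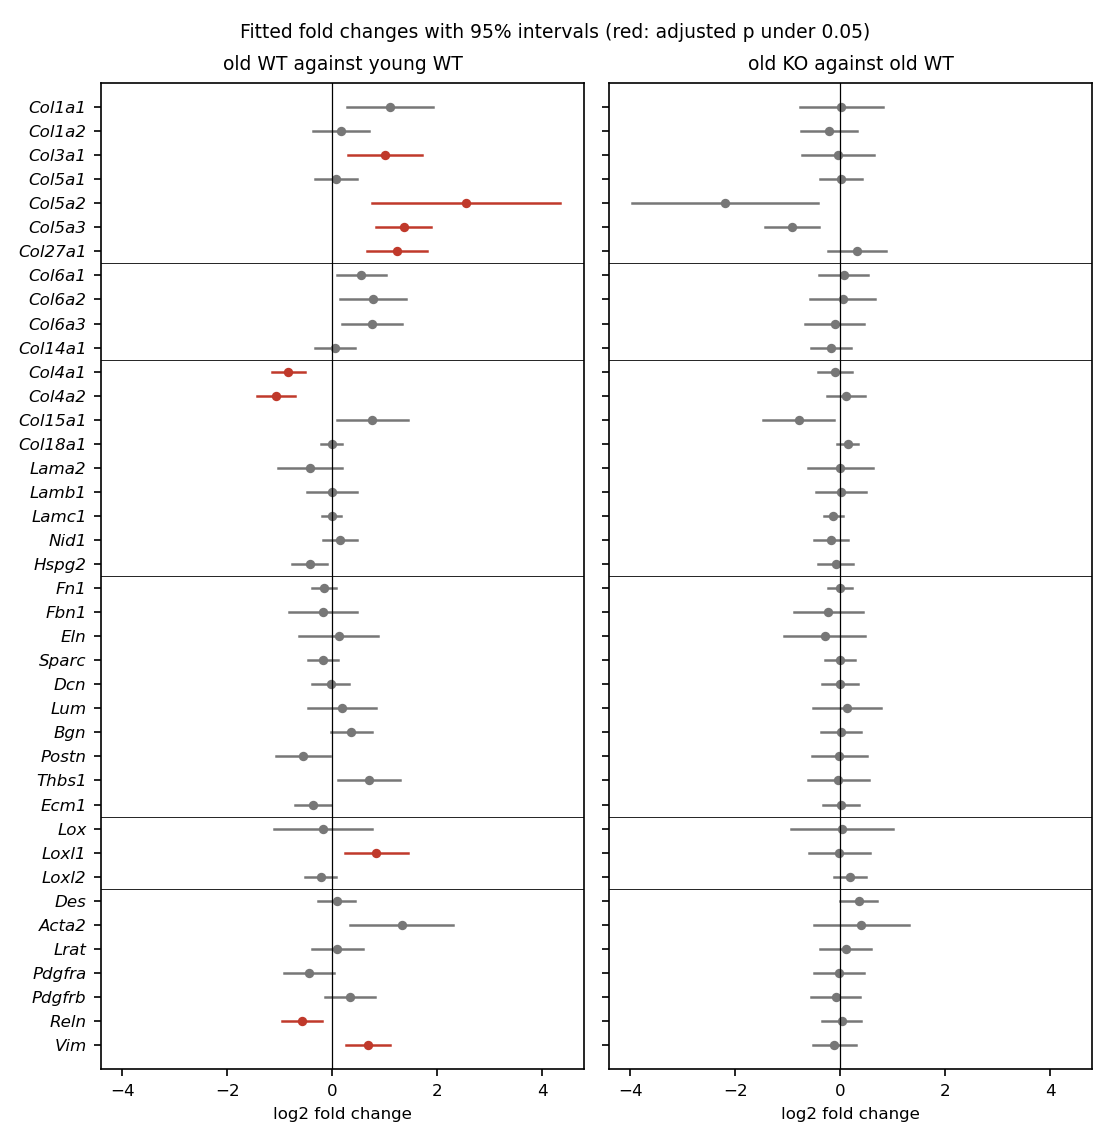
Fitted log2 fold change of each of the 40 genes (points) with its 95% interval (lines) for old WT against young WT on the left and old KO against old WT on the right, with lines between the 6 classes and red for an adjusted p under 0.05. On the left 9 genes are red, 6 to the right of 0 and 3 to the left, and on the right none is red.

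The fibrillar collagens include the chains of types I and III, which form the bulk of scar tissue. All 7 had a fold change above 0 with age, as 51.2% of all genes did. Of the 7, 4 passed the threshold, where 9.92% of all genes were called higher. Of these 4, Col5a2 was at 0.08 without old WT 7. Col3a1 and Col5a2 were called in only 5 and 4 of the 15 fits without 1 animal. The median log2 fold change of the 7 was 1.10, the value of Col1a1, which did not pass. In the sentences on single genes that follow, libraries are listed in the order young WT 1, 2, 3, 4 and 6, then old WT 1, 4, 5, 7 and 10, then old KO 1, 2, 4, 5 and 6.

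Col5a3, which encodes the alpha 3 chain of type V collagen, stood at 10.6, 9.40, 10.04, 9.67 and 19.2 CPM in young WT, at 33.4, 25.1, 32.4, 41.5 and 18.5 CPM in old WT, and at 9.25, 18.1, 18.5, 19.7 and 14.7 CPM in old KO. All old WT livers but number 10 lay above every young liver, and young WT 6 was the one young liver within the old range. The log2 fold change with age was 1.36 (SE 0.246, adjusted p 0.00208), a 2.57-fold rise.

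Col27a1, a fibrillar collagen known mainly from cartilage, stood at 4.95, 6.17, 5.44, 5.51 and 6.34 CPM in young WT, at 21.8, 12.7, 16.6, 8.58 and 7.31 CPM in old WT, and at 15.8, 23.2, 12.5, 21.6 and 11.1 CPM in old KO. The young livers were tightly grouped and every old liver of either genotype lay above all of them. The log2 fold change with age was 1.24 (SE 0.270, adjusted p 0.00581), a 2.37-fold rise.

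Col3a1, the single chain of type III collagen, stood at 6.21, 8.30, 9.62, 12.2 and 15.1 CPM in young WT, at 19.5, 16.7, 30.6, 23.3 and 13.0 CPM in old WT, and at 38.2, 14, 18.8, 20.5 and 8.59 CPM in old KO. Again old WT 10 was the one old WT liver within the young range. The log2 fold change with age was 1.01 (SE 0.334, adjusted p 0.0449), close to the threshold. It stayed between 0.82 and 1.19 when each of the 15 animals was left out in turn, and 5 of those 15 fits called it, with adjusted p from 0.0196 to 0.121. It was not called without young WT 1 (adjusted p 0.110), 2 (0.0979), 3 (0.0788) or 4 (0.0616), without old WT 1 (0.0720), 4 (0.0561), 5 (0.121) or 7 (0.0689), or without old KO 4 (0.0556) or 5 (0.0534).

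Col1a1, the alpha 1 chain of type I collagen, stood at 1.5, 3.02, 2.09, 1.93 and 2.11 CPM in young WT, at 2.69, 2.56, 8.71, 6.71 and 2.06 CPM in old WT, and at 7.53, 3.41, 3.47, 5.83 and 2.88 CPM in old KO. Old WT 5 and 7 were well above the young livers and the other old WT livers lay among them. Its log2 fold change with age was 1.10 (SE 0.389) and did not pass the threshold (adjusted p 0.0589), although it passed without old WT 4 (adjusted p 0.0474) or old WT 10 (0.0307). Its libraries held between 49 and 292 counts. The partner chain Col1a2 averaged 9.18 ± 1.02 CPM in young WT and 10.3 ± 3.78 CPM in old WT (SD, n = 5), with a log2 fold change of 0.16 (SE 0.252, adjusted p 0.690). Col5a1, the alpha 1 chain of type V collagen, was at 0.07 (SE 0.187, adjusted p 0.817).

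Col5a2, the alpha 2 chain of type V collagen, owed its call to a single animal. It stood at 2.47, 2.72, 4.37, 2.71 and 2.03 CPM in young WT, at 4.06, 2.06, 3.10, 72.6 and 2.83 CPM in old WT, and at 5.58, 2.14, 2.53, 4.86 and 3.34 CPM in old KO. The 72.6 CPM of old WT 7 was 13.0-fold above the next library. The fitted log2 fold change with age was 2.56 (SE 0.847, adjusted p 0.0455), and without old WT 7 it was 0.08 (adjusted p 0.870). It was also not called without any single young liver, nor without any single old KO liver, at adjusted p from 0.0513 to 0.0962. DESeq2 gave this gene no adjusted p. Col3a1, its neighbour 24614 bp away on chromosome 1, was at 23.3 CPM in the same animal, within the range of its group.

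The RefSeq sequences upstream of the transcription start are shown for Col5a3, Col27a1 and Col3a1, the called fibrillar collagen genes other than Col5a2. Each is 250 bases of build GRCm38.p6, read 5′ to 3′ along the gene. Capitals mark 3 short promoter motifs on either strand. These are CCAAT, read as ATTGG on the opposite strand, the GC box GGGCGG, read there as CCGCCC, and the TATA box TATAAA, read there as TTTATA. Col5a3 lies at chr9:20815068-20815317 on the minus strand, Col27a1 at chr4:63215162-63215411 on the plus strand and Col3a1 at chr1:45311288-45311537 on the plus strand.
Col5a3: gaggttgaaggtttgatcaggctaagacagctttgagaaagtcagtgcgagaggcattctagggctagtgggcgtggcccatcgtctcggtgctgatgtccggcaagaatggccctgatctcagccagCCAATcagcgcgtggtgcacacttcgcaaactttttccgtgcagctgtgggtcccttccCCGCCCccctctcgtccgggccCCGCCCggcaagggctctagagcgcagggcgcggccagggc
Col27a1: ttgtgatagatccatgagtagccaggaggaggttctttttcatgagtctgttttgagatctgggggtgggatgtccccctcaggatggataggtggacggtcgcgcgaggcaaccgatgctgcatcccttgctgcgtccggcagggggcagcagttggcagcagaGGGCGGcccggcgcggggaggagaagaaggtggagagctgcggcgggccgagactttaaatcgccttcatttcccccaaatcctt
Col3a1: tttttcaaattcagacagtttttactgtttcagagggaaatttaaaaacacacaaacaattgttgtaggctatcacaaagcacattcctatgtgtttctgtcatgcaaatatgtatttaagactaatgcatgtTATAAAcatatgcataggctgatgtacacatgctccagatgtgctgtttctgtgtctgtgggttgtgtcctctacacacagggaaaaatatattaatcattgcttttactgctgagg

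The 3 windows were unlike each other. Col5a3 held 1 CCAAT and 2 GGGCGG matches at 62.8% G and C, Col27a1 held 1 GGGCGG match at 59.6%, and Col3a1 held 1 TATAAA match at 35.2%. Upstream windows were found for 27 of the 40 genes, 30 windows in all. CCAAT was in 9 of the 30 and in 33.9% of 32851 windows of the same length over all genes, GGGCGG in 17 of 30 and 32.7%, and TATAAA in 4 of 30 and 12.4%. A match is a description of letters, not evidence of a bound factor.

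The beaded filament and fibril-associated collagens all had a fold change above 0 with age, as 51.2% of all genes did, and none of the 4 passed the threshold. The 3 chains of type VI collagen link cells to the matrix around them. Col6a1 averaged 6.58 ± 1.19 CPM in young WT and 9.71 ± 3.14 CPM in old WT, a log2 fold change of 0.56 (adjusted p 0.0849). Col6a2 averaged 3.26 ± 0.461 and 5.56 ± 2.03 CPM, at 0.78 (adjusted p 0.0769). Col6a3 averaged 6.37 ± 0.871 and 10.7 ± 3.45 CPM, at 0.76 (adjusted p 0.0596), and its old WT livers all lay above its young ones. Each chain was called in some of the other fits. Col6a1 passed without old WT 10 (adjusted p 0.0455), Col6a2 without old WT 10 (0.0386) or old KO 6 (0.0425), and Col6a3 without old KO 1 (0.0448) or old KO 6 (0.0306).

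Col14a1, a fibril-associated collagen and the most abundant of this class per length, stood at 42.1, 39, 59.2, 56.4 and 59 CPM in young WT, at 63.9, 55.4, 52.5, 53.5 and 40.1 CPM in old WT, and at 64.8, 50.7, 41.7, 47.4 and 29.3 CPM in old KO. The groups overlapped throughout, with a log2 fold change with age of 0.06 (SE 0.180, adjusted p 0.858).

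In the basement membrane class both chains of collagen IV fell with age, and the other 7 genes did not pass the threshold. Col4a1 stood at 42.6, 33.4, 39.8, 44.8 and 35.9 CPM in young WT, at 23.3, 22.7, 24.4, 21.7 and 18.3 CPM in old WT, and at 26.9, 22.4, 16.3, 24.1 and 13.7 CPM in old KO. Col4a2 stood at 23.3, 19.0, 23.0, 28.6 and 18.1 CPM in young WT, at 11.8, 11.2, 12.1, 10.4 and 7.87 CPM in old WT, and at 14.9, 10.7, 9.85, 13.9 and 7.98 CPM in old KO. For both chains every old liver lay below every young liver. Col4a1 fell by 0.83 on the log2 scale (SE 0.152, adjusted p 0.00234) and Col4a2 fell by 1.07 (SE 0.170, adjusted p 0.00100), to 0.562 and 0.477 of the young level. Both stayed called in all 15 fits without 1 animal, between -0.88 and -0.77 for Col4a1 and between -1.13 and -0.98 for Col4a2.

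The 2 genes are transcribed away from each other on chromosome 8, and their shared start is shown because both fell. In NCBIM37, the build of the counting, Col4a1 covers chr8:11198423-11312826 on the minus strand and Col4a2 covers chr8:11312805-11449287 on the plus strand, so that their first exons share 22 bases. The RefSeq starts in GRCm38.p6 share the same stretch, chr8:11312805-11312826, printed on the plus strand with a GGGCGG match in capitals.
Col4a1 and Col4a2: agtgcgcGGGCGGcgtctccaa

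Among the other collagens of the class, Col18a1 stood at 732, 917, 779, 985 and 882 CPM in young WT, at 916, 887, 875, 824 and 762 CPM in old WT, and at 969, 975, 947, 996 and 829 CPM in old KO. The WT groups overlapped fully and its log2 fold change with age was -0.01 (SE 0.094, adjusted p 0.955). Col15a1, which joins basement membranes to the matrix beneath, ranged from 6.06 to 15.8 CPM in young WT and from 5.79 to 23.0 CPM in old WT, with a log2 fold change of 0.76 (SE 0.319, adjusted p 0.106). It passed without young WT 6 (1.07, adjusted p 0.0201) or without old WT 7 (0.98, adjusted p 0.0203). The large proteoglycan perlecan, Hspg2, averaged 25.9 ± 4.62 CPM in young WT and 19.3 ± 4.35 CPM in old WT, a log2 fold change of -0.43 (adjusted p 0.0697). The laminin chains Lama2, Lamb1 and Lamc1 and the laminin-binding nidogen, Nid1, did not pass. Their means in young and old WT were 2.73 and 2.05 CPM for Lama2, 10.7 and 10.7 CPM for Lamb1, 19.6 and 19.5 CPM for Lamc1, and 23.5 and 26.0 CPM for Nid1.

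**Figure D3:**
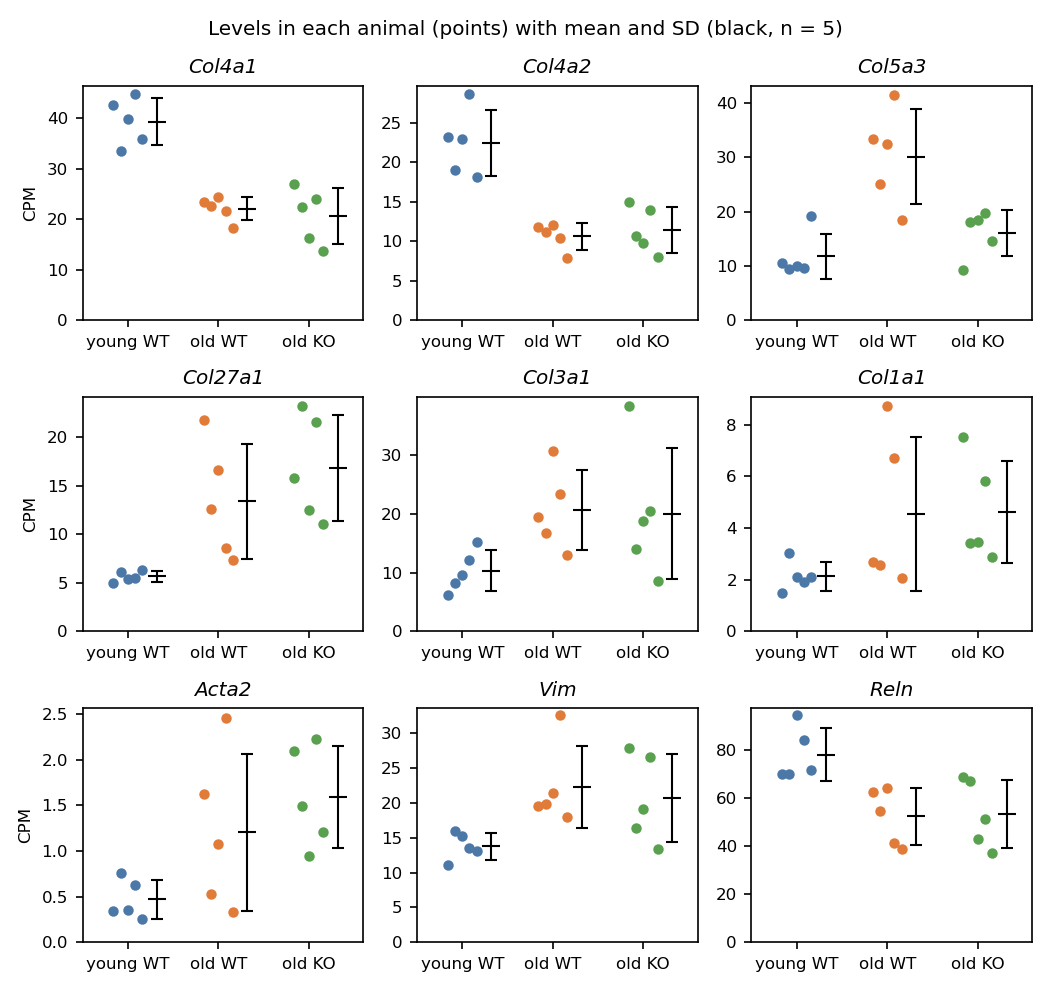
CPM of 9 genes in each of the 15 livers (points, blue young WT, orange old WT, green old KO), with the mean and SD of each group of 5 in black and axes that start at 0. Col4a1, Col4a2 and Reln have every old liver below every young liver, Col27a1 has every old liver above, and Col5a3 is highest in old WT.

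None of the 10 matrix glycoproteins and proteoglycans passed the threshold with age, and 3 had an unadjusted p under 0.05, beside 33% of all genes. Fn1 stood at 1898, 2285, 1989, 2429 and 2066 CPM in young WT, at 2097, 2038, 1880, 1546 and 1999 CPM in old WT, and at 2167, 1963, 1943, 1785 and 1713 CPM in old KO. The groups overlapped, with a log2 fold change with age of -0.16 (SE 0.106, adjusted p 0.315). Among the small leucine-rich proteoglycans, which bind collagen fibrils, biglycan (Bgn) averaged 112 ± 11.7 CPM in young WT and 145 ± 36.4 CPM in old WT, at 0.37 (adjusted p 0.168). Decorin averaged 204 and 199.5 CPM, and lumican (Lum) 9.13 and 10.4 CPM.

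The matricellular proteins, which tune the contact of cells with matrix, differed in the sign of their fold changes, and none passed. Thrombospondin 1, Thbs1, an activator of latent TGF-beta, averaged 1.57 ± 0.524 CPM in young WT and 2.56 ± 0.541 CPM in old WT, at 0.70 (adjusted p 0.0865). Periostin, Postn, averaged 15.9 ± 2.28 and 10.9 ± 4.85 CPM, at -0.56 (adjusted p 0.126). Ecm1 averaged 150.4 ± 21.3 and 117 ± 30.0 CPM, at -0.36 (adjusted p 0.127). Each of these 3 was called without 1 animal: Thbs1 without young WT 4 (adjusted p 0.0330) or old KO 5 (0.0459), Postn without old WT 4 (0.0405) and Ecm1 without old WT 1 (0.0450). The collagen-binding glycoprotein Sparc averaged 37.8 and 33.3 CPM. The elastic fibre genes were low, Fbn1 (fibrillin 1) at 4.19 and 3.70 CPM and Eln (elastin) at 1.00 and 1.10 CPM.

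Of the cross-linking enzymes, Loxl1 rose with age. It stood at 1.18, 1.19, 1.17, 1.33 and 1.16 CPM in young WT, at 2.16, 1.17, 3.82, 2.42 and 1.25 CPM in old WT, and at 2.96, 2.18, 1.46, 2.18 and 1.95 CPM in old KO. The young livers lay within a narrow band, which old WT 4 and 10 shared. The log2 fold change with age was 0.84 (SE 0.280, adjusted p 0.0457), between 0.53 and 1.01 when each animal was left out, and 4 of those 15 fits called it. In the other 11 its adjusted p ran up to 0.153, the value without old WT 5, and leaving out any single young liver, old WT 1 or 7, or old KO 2, 5 or 6 also took it past 0.05. Loxl2, which also cross-links collagen IV, stood at 5.0, 5.40, 4.69, 6.21 and 5.26 CPM in young WT, at 4.97, 4.94, 5.19, 4.58 and 3.09 CPM in old WT, and at 6.37, 5.23, 4.67, 4.74 and 4.87 CPM in old KO. Its log2 fold change with age was -0.22 (SE 0.142, adjusted p 0.295). Lox averaged 0.435 and 0.382 CPM in young and old WT, too few counts to show a modest change.

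The stellate and mesenchymal markers included 1 gene of 7 that rose with age and 1 that fell. Vim, the intermediate filament protein of mesenchymal and other non-parenchymal cells, stood at 11, 15.9, 15.2, 13.5 and 13.2 CPM in young WT, at 19.6, 19.8, 21.4, 32.5 and 18 CPM in old WT, and at 27.8, 16.3, 19.1, 26.5 and 13.4 CPM in old KO. Every old WT liver lay above every young liver. The log2 fold change was 0.69 (SE 0.198, adjusted p 0.0238), and it was not called without young WT 1 (0.62, adjusted p 0.0650) or without old WT 7 (0.53, adjusted p 0.0525).

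Reln, the secreted glycoprotein reelin that quiescent stellate cells express, stood at 70.0, 70.1, 94.5, 83.9 and 71.6 CPM in young WT, at 62.6, 54.8, 64.3, 41.5 and 38.8 CPM in old WT, and at 68.5, 67.2, 42.9, 51.2 and 37.0 CPM in old KO. Every old liver lay below every young liver. Reln fell by 0.57 on the log2 scale with age (SE 0.178, adjusted p 0.0348). It was not called without young WT 3 (adjusted p 0.0857) or 4 (0.0624), or without old WT 4 (0.0615), 7 (0.0725) or 10 (0.0781). Its upstream window, chr5:22344706-22344955 of GRCm38.p6 on the minus strand, is shown because Reln was the stellate marker that fell. With 80% G and C and 6 GGGCGG matches, it differs from the windows of the collagens that rose.
Reln: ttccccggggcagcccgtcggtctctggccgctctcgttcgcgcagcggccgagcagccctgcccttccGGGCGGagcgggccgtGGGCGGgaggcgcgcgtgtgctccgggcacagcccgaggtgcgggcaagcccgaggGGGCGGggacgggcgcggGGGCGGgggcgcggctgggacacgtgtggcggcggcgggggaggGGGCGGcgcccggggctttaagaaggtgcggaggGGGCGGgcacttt

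Acta2, smooth muscle actin and the classical marker of myofibroblasts, had few counts. Per length it was at 0.611 CPM per kb over the 15 libraries, beside 0.574 for Col1a1. It stood at 0.342, 0.763, 0.359, 0.633 and 0.259 CPM in young WT, at 1.62, 0.533, 1.07, 2.46 and 0.331 CPM in old WT, and at 2.10, 1.49, 0.942, 2.22 and 1.21 CPM in old KO, on 6 to 67 counts per library. Old WT 1, 5 and 7 lay above all young livers and old WT 4 and 10 did not. Its log2 fold change with age was 1.33 (SE 0.464, adjusted p 0.0559), which missed the threshold. It passed without old WT 4 (1.52, adjusted p 0.0407) or without old WT 10 (1.56, adjusted p 0.0198).

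Des and Lrat, which mark stellate cells, had fold changes near 0 with age. Des, the intermediate filament desmin, stood at 3.40, 3.85, 3.65, 3.74 and 3.92 CPM in young WT, at 3.87, 4.13, 5.10, 4.03 and 2.54 CPM in old WT, and at 5.65, 5.37, 3.43, 5.20 and 5.52 CPM in old KO. Lrat, which esterifies retinol for storage, stood at 13.2, 20.4, 17.1, 20.6 and 25.5 CPM in young WT, at 23.5, 25.2, 24.5, 14.8 and 15.7 CPM in old WT, and at 25.6, 35.2, 17.3, 18.7 and 14.9 CPM in old KO. The age log2 fold changes were 0.09 for Des (SE 0.168, adjusted p 0.749) and 0.10 for Lrat (SE 0.230, adjusted p 0.791), and the groups overlapped. The receptors of platelet-derived growth factor, a mitogen of stellate cells, were at -0.44 for Pdgfra (16.2 ± 3.89 and 12.0 ± 3.61 CPM in young and old WT, adjusted p 0.180) and 0.34 for Pdgfrb (9.29 ± 0.732 and 11.7 ± 3.11 CPM, adjusted p 0.299).

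**Figure D4:**
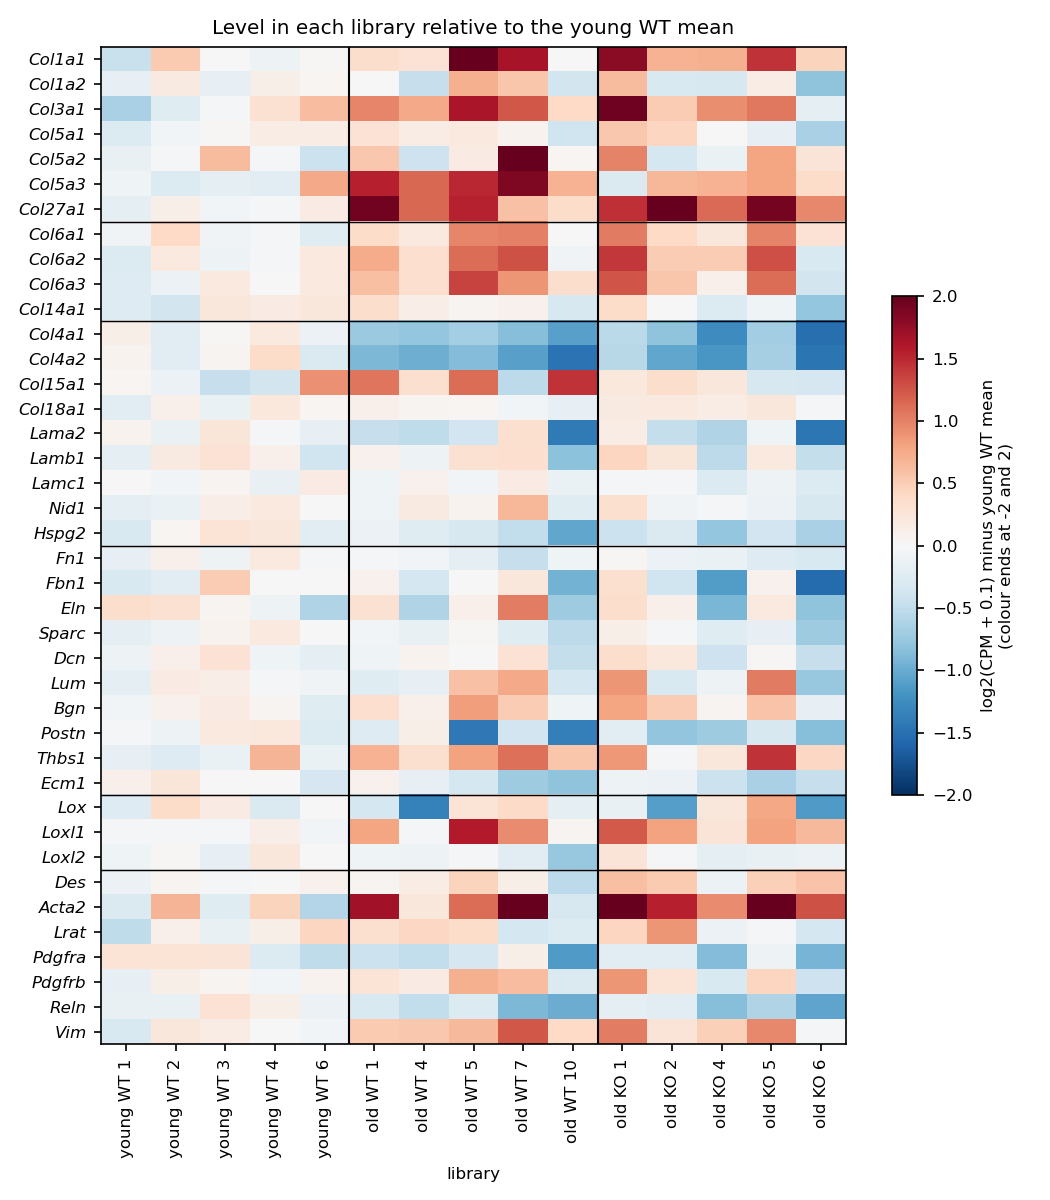
Level of each of the 40 genes in each of the 15 livers as log2(CPM + 0.1) minus the young WT mean, red for higher and blue for lower, with colours that end at -2 and 2 and lines between groups and classes. The upper rows (fibrillar collagens) are mostly red in old livers, the Col4a1 and Col4a2 rows are blue in all 10 old livers, and the columns of old WT 10 and old KO 6 are paler or bluer than the rest of their groups for most genes.

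Other genes of matrix synthesis and other cell type markers were measured beside the 40 genes. Over all genes 9.92% were called higher with age and 8.91% lower. Of 29 collagen-processing genes tested, 2 rose and 2 fell with age. Sec23a, whose coat protein takes procollagen out of the endoplasmic reticulum, fell by 0.45 (SE 0.0967, adjusted p 0.00521), Loxl4 rose by 1.5 (SE 0.419, adjusted p 0.0213) and the procollagen C-proteinase enhancer Pcolce rose by 0.71 (SE 0.199, adjusted p 0.0219). Of 46 other matrix genes tested, 5 rose and 2 fell, among them the transmembrane collagen Col13a1 at -0.97 (adjusted p 0.00389), fibulin 3 (Efemp1) at 0.79 (adjusted p 0.0150) and tenascin C (Tnc) at 1.25 (adjusted p 0.0161).

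Of 20 other stellate cell markers 1 rose and 5 fell with age, where 9.92% of all genes were called higher and 8.91% lower. In the whole list 9 genes had a fold change above 0 and 11 below, with a median log2 fold change of -0.08. The 3 with the smallest p were all among those that fell. The endothelin receptor Ednrb was at -0.80 (SE 0.127, adjusted p 0.000992), Vipr1 at -0.66 (adjusted p 0.00475) and the hedgehog-binding Hhip at -1.12 (adjusted p 0.00891). The summed CPM of the list overlapped between the groups, at 639 to 811 in young WT and 626 to 717 with age. Of 9 portal fibroblast markers tested 2 rose, Gas6 at 1.45 (adjusted p 0.00149) and Cd34 at 1.06 (adjusted p 0.0357), where 9.92% of all genes did. All 9 were above 0, as 51.2% of all genes were. Their summed CPM ran from 31.5 to 55.4 in young WT, from 62.8 to 119 with age, and between 45.8 and 92.6 for the old KO livers. Most of that sum was Gas6, which averaged 24.7 CPM in young WT and 67.2 CPM in old WT, where the whole list averaged 40.7 and 93.6 CPM. Of the 3 portal markers too low to test, Gli1, Clec3b and Ly6c1, none passed 0.587 CPM in any library. Of 5 smooth muscle markers tested 1 rose (Synpo2, 1.16, adjusted p 0.0451), and of 7 mesothelial markers 1 rose (Lrrn4, 2.13, adjusted p 0.000242).

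Liver sinusoidal endothelium is another source of collagen IV. Of 14 endothelial markers 3 fell with age, where 8.91% of all genes did, 11 did not pass, and 12 were below 0, as 48.8% of all genes were. The 3 were Lyve1 at -0.94 (adjusted p 0.0167), Stab1 at -0.47 (adjusted p 0.0214) and Stab2 at -0.56 (adjusted p 0.0358). Their summed CPM ran from 370 to 642 in young livers, between 286 and 493 for old WT livers and between 371 and 433 for old KO livers, so the groups overlapped. Bile duct markers summed to between 29.8 and 51.2 CPM in young livers and between 38.9 and 107 CPM in old WT livers, with 1 of 5 tested past the threshold (Spp1, 0.98, adjusted p 0.0262). Among leukocyte genes 2 of 6 rose, Cd52 at 0.90 (adjusted p 0.0228) and Coro1a at 0.68 (adjusted p 0.0389), and none of 12 Kupffer cell and macrophage markers passed with age. Of 8 hepatocyte markers 2 fell, Cps1 at -1.27 (adjusted p 0.0197) and Apoa1 at -0.69 (adjusted p 0.0241).

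Of 6 adipocyte markers 2 were tested with age. Cidec, a protein of lipid droplets, fell by 3.21 on the log2 scale (SE 0.637, adjusted p 0.00360), from 45.8 ± 42.8 CPM in young WT to 4.99 ± 4.48 CPM in old WT, with every old WT liver below every young liver. The fatty acid carrier Fabp4 was at -0.09 (adjusted p 0.833). The summed CPM of the list ran from 19.3 to 126 in young WT, from 7.69 to 15.3 in old WT and from 3.93 to 8.40 in old KO. It was lower in every old liver. Most of the young WT sum was Cidec, at a mean of 45.8 CPM where the whole list averaged 50.8 CPM. The defining markers Adipoq, Plin1, Cfd and Lep did not pass 0.268 CPM in any library. The part of these cell types in the collagen values was not tested.

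Loss of S6K1 in old mice was compared next. None of the 40 genes passed the threshold in edgeR between old KO and old WT, against a background of 0.533% of all genes, and 3 had an unadjusted p under 0.05, beside 11.6% of all genes. DESeq2 called 1 of them, Col5a3, and 2.14% of all genes. No gene had old KO and old WT groups without overlap, where 3.2% of all genes did. The median log2 fold change of the 40 genes was -0.003, and 33 of them lay within 0.25 of 0. Without the 2 low livers the count was also 0, where that fit called 0.0626% of all genes.

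These data set limits on how large a genotype difference could be. For 34 of the 40 genes the 95% interval of the fold change lay within a 2-fold change either way, and for 21 within 1.5-fold. The exceptions to the wider limit were Col5a2, Col5a3, Col15a1, Eln, Lox and Acta2. The log2 interval ran from -0.77 to 0.82 for Col1a1, from -0.74 to 0.65 for Col3a1, from -0.42 to 0.23 for Col4a1 and from -0.26 to 0.47 for Col4a2, so small differences in these genes could not be seen.

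Col5a3 was the gene with the smallest adjusted p, and 4 of the 5 old KO livers lay at 14.7 to 19.7 CPM with old KO 1 at 9.25, against 18.5 to 41.5 CPM in old WT. Its log2 fold change between old KO and old WT was -0.91 (SE 0.243, edgeR adjusted p 0.116), and the exact two-sided permutation test gave p = 0.0159 before adjustment. DESeq2 gave an adjusted p of 0.0200. Over the fits without 1 animal the fold change lay between -1.05 and -0.77 and the adjusted p between 0.0562 and 0.243, never past the threshold. Old WT was the highest of the 3 groups for this gene, with 11.8 ± 4.16 CPM in young WT, 30.2 ± 8.72 in old WT and 16 ± 4.23 in old KO.

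The other 2 genes with an unadjusted p under 0.05 were Col5a2, at -2.19 with the old WT 7 library in it and at 0.28 without it, and Col15a1, at 8.71 ± 1.90 CPM in old KO and 15.1 ± 6.85 CPM in old WT (-0.79, SE 0.321, adjusted p 0.333). The stellate markers with the highest fold changes in old KO did not pass either: Acta2 was at 0.40 (SE 0.428, adjusted p 0.787) and Des at 0.35 (SE 0.167, adjusted p 0.429). Col27a1 was at 0.33 (SE 0.261, adjusted p 0.685). Of the other lists, none of the genes for collagen processing, other matrix, other stellate cells, portal fibroblasts, smooth muscle, mesothelium or endothelium passed between the genotypes. Markers of Kupffer cells and macrophages did, with 7 of 12 lower in old KO, where 60 of all 14258 genes were called lower. Among the 7, C1qb was at -1.02 (adjusted p 0.0223), Cd5l at -1.47 (adjusted p 0.0247) and C1qc at -0.99 (adjusted p 0.0290). Summed over the list, old WT livers held 319 to 719 CPM of these markers and old KO livers 200.5 to 278 CPM, and their part in the Col5a3 values was not tested.

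Old KO livers were also set against young WT livers, which differed from them in age as well as in genotype. Of the 40 genes 10 passed, 6 higher and 4 lower, against a background of 23.3%, or 12% higher and 11.3% lower. Without the 2 low livers 13 passed, 10 higher and 3 lower, against 22.7% of all genes. Old KO and young WT did not overlap for Col27a1, Loxl1 and Acta2, which were higher (7.32% of all genes), or for Col4a1, Col4a2 and Reln, which were lower (6.56%). This comparison shares the young WT libraries with that of old WT, so the fold changes of both are given side by side and no overlap is read from them. Col4a1 was at -0.93 (adjusted p 0.000866) in old KO and at -0.83 in old WT, Col4a2 at -0.96 (adjusted p 0.00129) and -1.07, and Reln at -0.55 (adjusted p 0.0363) and -0.57. Hspg2 was at -0.51 (adjusted p 0.0299) in old KO and at -0.43 in old WT.

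Among the genes that were higher, Col27a1 was at 1.57 (SE 0.271, adjusted p 0.00109) in old KO against young WT and at 1.24 in old WT. Acta2 was at 1.73 (SE 0.463, adjusted p 0.0140) and 1.33, with every old KO liver above every young liver. Col1a1 was at 1.12 (adjusted p 0.0481) and 1.10, Col3a1 at 0.97 (adjusted p 0.0464) and 1.01, Loxl1 at 0.83 (adjusted p 0.0444) and 0.84, and Vim at 0.59 (adjusted p 0.0427) and 0.69. Col5a3 was at 0.45 (SE 0.246, adjusted p 0.199) in old KO and at 1.36 in old WT, and Des at 0.44 (adjusted p 0.0666) and 0.09. Col27a1, Col4a1 and Col4a2 were called in every fit of this comparison and Acta2 in every fit that tested it. The other calls lay near the threshold. Those of Col1a1, Col3a1, Loxl1 and Vim ended without old KO 1, at adjusted p of 0.133, 0.161, 0.114 and 0.116. Col1a1 was also lost without young WT 1, 3, 4 or 6 or old KO 4 or 5, and Col3a1 without young WT 1, 2, 3 or 4, old WT 1 or 4, or old KO 4 or 5. Loxl1 was lost without any single young liver, old WT 1, or old KO 2, 5 or 6, and Vim without young WT 1, 3, 4 or 6, old WT 1, 4 or 5, or old KO 4 or 5. Hspg2 was lost without young WT 2, 3 or 4 or old KO 4 or 6, and Reln without young WT 3 or 4 or old KO 4, 5 or 6, where their adjusted p reached at most 0.0779 and 0.0918. Col5a3 passed without young WT 6 (0.69, adjusted p 0.0333).

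Collagen chains that assemble together were compared within each liver as a ratio of CPM, a measure chosen after the values were seen. CPM was not divided by exon length here, so the size of a ratio does not give the proportion of the chains. Type I collagen is normally built from Col1a1 and Col1a2 chains in one molecule. The ratio of Col1a1 to Col1a2 was 0.185, 0.292, 0.256, 0.195 and 0.225 in young WT, 0.296, 0.387, 0.583, 0.496 and 0.290 in old WT, and 0.532, 0.461, 0.476, 0.577 and 0.554 in old KO. All old KO livers lay above all young livers, and old WT 10 was the one old WT liver below the highest young liver.

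The old WT to young WT difference in this ratio was 1.74-fold, with an exact two-sided permutation p of 0.0159 and 0.0635 after Benjamini-Hochberg adjustment over 12 such tests. Between old KO and young WT it was 2.28-fold (exact p 0.00794, the smallest that 5 against 5 allows, adjusted 0.0635), and between old KO and old WT 1.31-fold (exact p 0.127, adjusted 0.305). None passed after adjustment. Over 12 tests, a lone test could not have passed the threshold even at the smallest exact p. Old KO and young WT did not overlap in this ratio, and their exact p was at that limit. The adjusted values therefore cannot show that the ratio was unchanged. The ratio of Col4a2 to Col4a1 had a mean of 0.567 in young WT, 0.481 in old WT and 0.560 in old KO, and the same exact permutation test gave adjusted p of 0.0635 for age and 0.119 for genotype. The type VI ratios, Col6a2 to Col6a1 and Col6a3 to Col6a1, had exact p from 0.198 to 0.802 before adjustment.

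**Figure D5:**
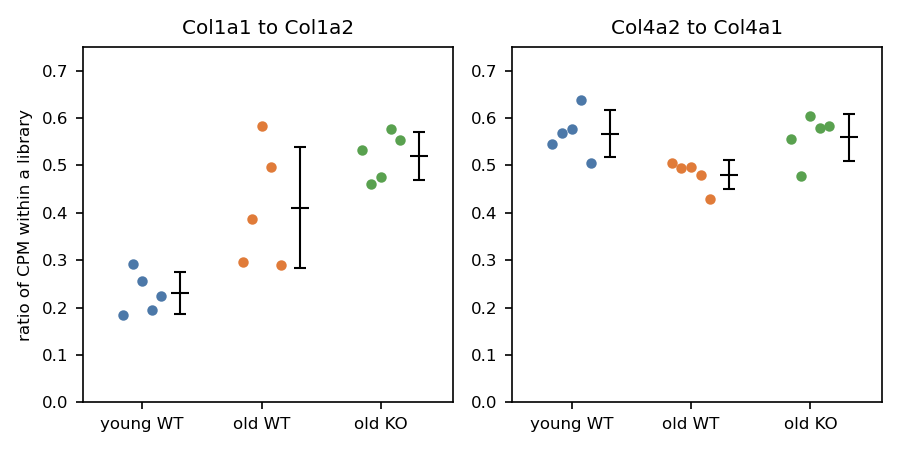
Ratio of Col1a1 to Col1a2 (left) and of Col4a2 to Col4a1 (right) in each liver (points), with the mean and SD of each group of 5 in black and axes that start at 0. The left ratio is 0.185 to 0.292 in young WT and 0.461 to 0.577 in old KO, and the right ratio is lowest in old WT.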

How the data were processed

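The authors prepared poly(A) libraries with a stranded kit, sequenced single-end reads, mapped them with TopHat (2.0.11 in the submitters' notes) to mouse build mm9 and counted with HTSeq. The deposited values are raw counts per gene of 15 libraries, neither scaled nor pooled. The annotation and strand setting of the counting were not given in the sources used here, so counts of the 9 of the 40 genes whose exons overlap another gene in GENCODE M1 (NCBIM37) are less certain, among them Col1a1, Fn1, Des, Reln and the pair Col4a1 and Col4a2.

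Groups were read from the sample titles. No row of the count table lacked a gene. Counts were scaled by TMM, filtered with filterByExpr to 14258 genes and fitted to all 15 libraries with edgeR 4.0.16 (glmQLFit, glmQLFTest, R 4.3.3). P-values were adjusted by Benjamini-Hochberg over all genes tested, and adjusted p-values are from this fit unless another tool is named. Genes were called at 0.05. Fold change intervals are 95% and used the t quantile of the fit. The common biological coefficient of variation was 0.189. Single values used exact permutation of log2(CPM + 0.1), or of log2 ratios, over 252 assignments of 5 against 5, with a smallest p of 0.00794. Within groups, libraries differed by more than counting noise (chi-square per degree of freedom 19.6 to 129 over 30 pairs). The edgeR script was tested on simulated data. RefSeq promoter windows of GRCm38.p6 were scanned for 3 motifs. No protein sequences were used.

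The 40 genes and the other lists were chosen with earlier results of these data known. Of 227 list entries 218 matched by symbol, 7 by synonym and 2 did not match. Values in every library are given for genes called with age or genotype, for the member of each class with the highest CPM per kb, and for Col1a1, Col3a1, Acta2, Des and Lrat. Of other lists, at most the 3 called genes with the smallest p in a comparison were named. Alternatives were DESeq2 1.42.0, limma 3.58.1 (voom), other scalings and filters, fits of 10 libraries, a replicate block and leaving out animals.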

Additional observations from a re-analysis of the deposited data

Results flagged for a closer look

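For each of the 40 genes and each group of 5, the highest and the lowest animal were compared with the others of the group. Dixon's ratio on log2 CPM was used, and 7 of 120 groups passed the critical value of 0.71. About 1 in 20 groups would pass by chance if groups were normal and independent. The 40 genes share animals, so the 7 cannot be judged against that rate. Col5a2 in old WT 7 was at 72.6 CPM, against 2.06 to 4.06 CPM in the rest of its group. Col5a3 in young WT 6 was at 19.2 CPM, the one young liver in the old WT range. Thbs1 and Loxl1 were both highest in young WT 4, at 2.50 and 1.33 CPM. The low ones were Col18a1 in old KO 6 at 829 CPM, Loxl2 in old WT 10 at 3.09 CPM and Des in old KO 4 at 3.43 CPM. Old WT 10 and old KO 6 were also the lowest of their groups for most of the 40 genes.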

How the results depend on the processing

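With each animal left out in turn, the number of genes called was 5 to 12 for age and 0 to 0 for genotype. For old KO against young WT it was 4 to 13. Of the 14367 to 14424 genes tested, these fits called 1748 to 3284, 9 to 108 and 2460 to 3829. DESeq2 called 13 genes for age, 1 for genotype and 13 for old KO against young WT. Over all genes it called 3249, 305 and 3778. Upper quartile scaling and limma voom each called 6 in the last comparison, where they called 3319 and 3265 of 14258 genes. Median fold changes over the 40 genes stayed within the spread between libraries (0.276 on the log2 scale) under every alternative. Deviations of same-numbered livers correlated between -0.153 and 0.0770. Such values cannot show whether equal replicate numbers marked related or matched animals. With the replicate number as a block, 4 genes were called for age, 0 for genotype and 6 for old KO against young WT. That fit called 899, 6 and 2334 of all 14258 genes. Replicate numbers 3, 7 and 10 belonged to young WT 3, old WT 7 and old WT 10 alone. These livers therefore added nothing to the comparisons of the block fit, and its values describe the other animals. In this block fit, 8 of the 40 genes took the other sign with age, Col1a2 (-0.28), Col5a2 (-0.0137), Col18a1 (0.0072), Lum (-0.41), Eln (-0.30), Dcn (0.0386), Lamb1 (0.0270) and Lamc1 (0.0216), and 15 with genotype, among them Col3a1 (0.0396), Col5a2 (0.413), Col27a1 (-0.0712), Lrat (-0.296), Thbs1 (0.279), Ecm1 (-0.233), Reln (-0.164), Col5a1 (-0.132) and Vim (0.121). Without both old WT 10 and old KO 6, a choice made after seeing the data, 4 genes turned with age, Col18a1 (0.0278) among them, and 5 with genotype, among them Col1a1 (-0.0315) and Col3a1 (0.0228). With 1 animal left out, 11 of the 40 genes took the other sign in some fit for age, 27 for genotype and 10 for old KO against young WT. Listed here are only those with a main-fit fold change or interval given above for the same comparison. For age they were Col14a1 (-0.0283 to 0.141), Col18a1 (-0.0638 to 0.0325), Col1a2 (-0.0158 to 0.291), Des (-0.0260 to 0.209) and Lrat (-0.00999 to 0.227). For genotype they were Col1a1 (-0.22 to 0.41), Col3a1 (-0.41 to 0.15), Col4a1 (-0.207 to 0.0218), Col4a2 (-0.00842 to 0.209) and Col5a2 (-2.48 to 0.28). The rest of the 27 are not listed. Of all genes that turned under any alternative, 13 for age, 28 for genotype and 10 for old KO against young WT, Col5a2 with age was the only one called in the fit reported, and none was called where it had turned. Causes were not tested, apart from Col5a2, where leaving out old WT 7 removed the change. For age, Col3a1 (0.70), Loxl1 (0.65), Reln (-0.36) and Vim (0.38) were not called under the block, Loxl1 also not under voom (0.72), with no filter (0.84) or in 10 libraries (0.84), and Col5a2 not under voom (0.96) or in 10 libraries (2.55). Depth limits Lox and Acta2, with under 10 counts in some libraries.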
